A study of Homo sapiens with 6 samples.

Results

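The genes described here are the zinc finger genes of a table of 1998 genes that differed between control and H19 siRNA in HepG2 cells. They are the 46 rows whose gene name begins with ZNF, ZSCAN, ZKSCAN, ZBTB or ZFP followed by a digit, and no row with a ZSCAN name was among them. The table lists only genes with an adjusted p under 0.05 in that comparison, so the members were selected on their own siH19 to siCon difference. Their levels and differences are therefore given as a description, with no test added. HepG2 is a liver cancer cell line that keeps many hepatocyte functions. One group received a control siRNA (siCon, 3 libraries) and the other an siRNA against H19 (siH19, 3 libraries), H19 being an imprinted long noncoding RNA, and both were collected 48 h after transfection. The labels name no other difference between the groups. Separate cultures are not mentioned for the replicates, and the deposited errors and adjusted p-values may therefore measure only technical spread. The level of H19 itself was not analysed here, and siH19 stands for the label alone.

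Most members encode C2H2 zinc finger proteins, in which repeated short modules, each folded around a zinc ion by a pair of cysteines and a pair of histidines, read DNA sequence. Many carry a further domain at the amino end. The KRAB box recruits the corepressor TRIM28 and with it histone methyltransferases and heterochromatin proteins, and KRAB zinc finger proteins are best known for silencing transposable elements. The SCAN and BTB domains let the proteins pair with each other, and BTB domains can also bind corepressors. Genes of the KRAB class lie in long runs of near relatives, above all on chromosome 19.

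All levels, log2 fold changes, standard errors (SE) and adjusted p-values of single genes below are the values of the authors' deposited table, which holds 1 value per group. A fold change is siH19 over siCon on the log2 scale, and group levels are normalized counts, turned back here from the deposited log2 values. The depth of each library is unknown, as no totals came with the table. Of 10 hepatic marker genes, 9 were in the table (all but TF), and each of the 9 was lower in siH19, their median being -0.51 on the log2 scale. Of 7 markers of other cell types, 2 were in the table, ACTA2 (-0.83) and CD68 (-1.21), with mean counts of 673 and 810, while PTPRC, COL1A1, PECAM1, KRT19 and KRT7 were not. All listed markers were thus lower, whereas most zinc finger genes were higher, and the part of the markers in the results was not tested. In RNA from whole cultures, fewer cells of a type and less RNA per cell cannot be told apart.

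Zinc finger genes were mostly higher in cells that received the H19 siRNA. Of the 46 members, 32 (69.6%) were higher and 14 were lower, whereas of all listed genes 44.7% were higher and 55.3% were lower. The median log2 fold change was 0.39 over the members and -0.27 over all listed genes. Both values rest on genes chosen for their difference, and the members' excess on the higher side was not tested. The changes were small, with a median size close to that of all listed genes. The members ran from -0.80 for ZNF25 to 0.77 for ZNF385B in the authors' deposited table. None reached 2-fold, against 83 of the other 1952 listed genes. A change of 1.5-fold was reached by 10 of the 46 members, against 553 of the other 1952. The median size of change regardless of sign was 0.465 for members and 0.45 for all listed genes. The deposited fold changes may be shrunken toward 0, most at low counts, so these sizes may be understated.

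**Figure D1:**
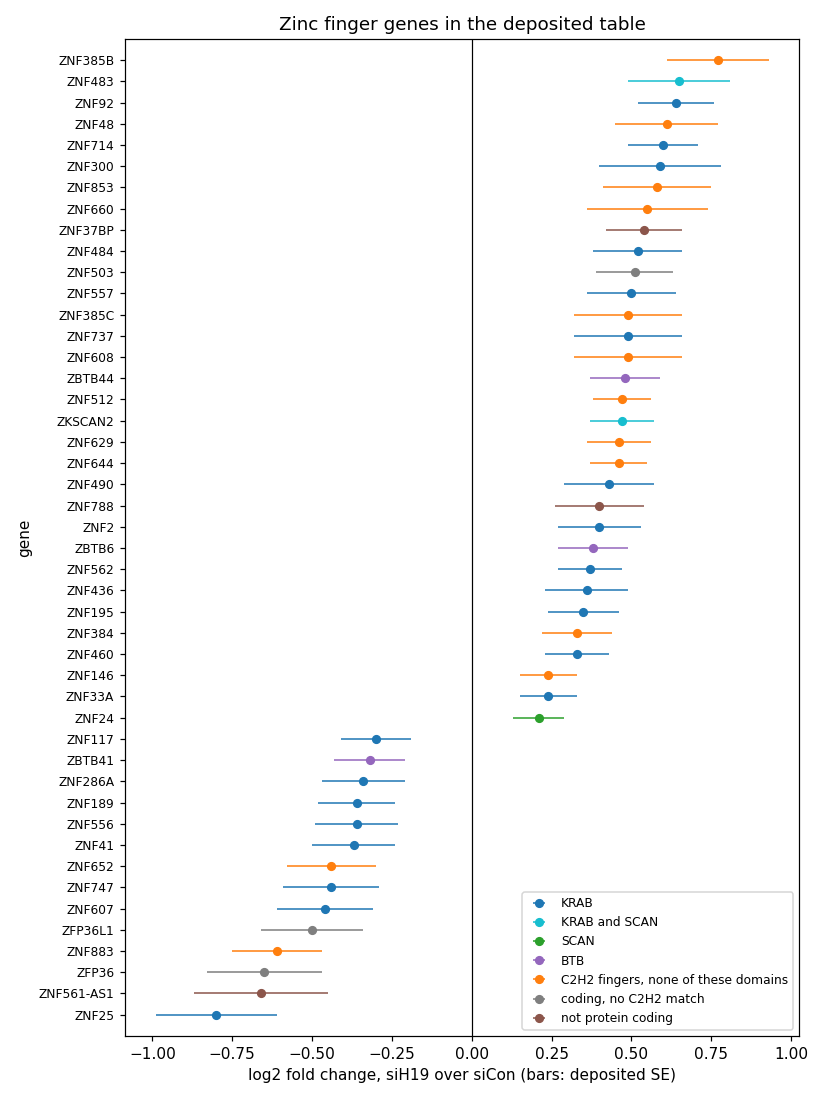
The log2 fold change, siH19 over siCon (horizontal axis), of each of the 46 zinc finger genes (vertical axis), coloured by domain class, with bars for the deposited SE of 3 against 3 libraries. The 32 higher genes run from 0.21 to 0.77 and the 14 lower genes from -0.80 to -0.30.

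The members were expressed at low to moderate levels. Their mean normalized counts ran from 54.9 to 2353 with a median of 302.7, against a median of 639.8 for all listed genes. As longer transcripts give more counts, levels were compared between genes per kilobase of 1 annotated transcript for each. For ZNF562 it spanned 2111 of 13007 exonic bases, so levels on this scale depend on the transcript chosen. On that scale ZFP36L1 was highest (584 counts per kb), followed by ZNF146 (409), ZNF24 (373), ZNF644 (371) and ZNF512 (341), and ZNF660 was lowest (14.4). No spread of these levels over libraries was given, so the order of neighbours in this series was not tested. KRAB genes without a SCAN domain had a median of 62.3 counts per kb and genes with fingers alone had 105. The higher coding genes ran from 14.4 to 409 counts per kb (median 98.2) and the lower ones from 15.8 to 584 (median 73.8), so the ranges overlapped over most of their length.

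**Figure D2:**
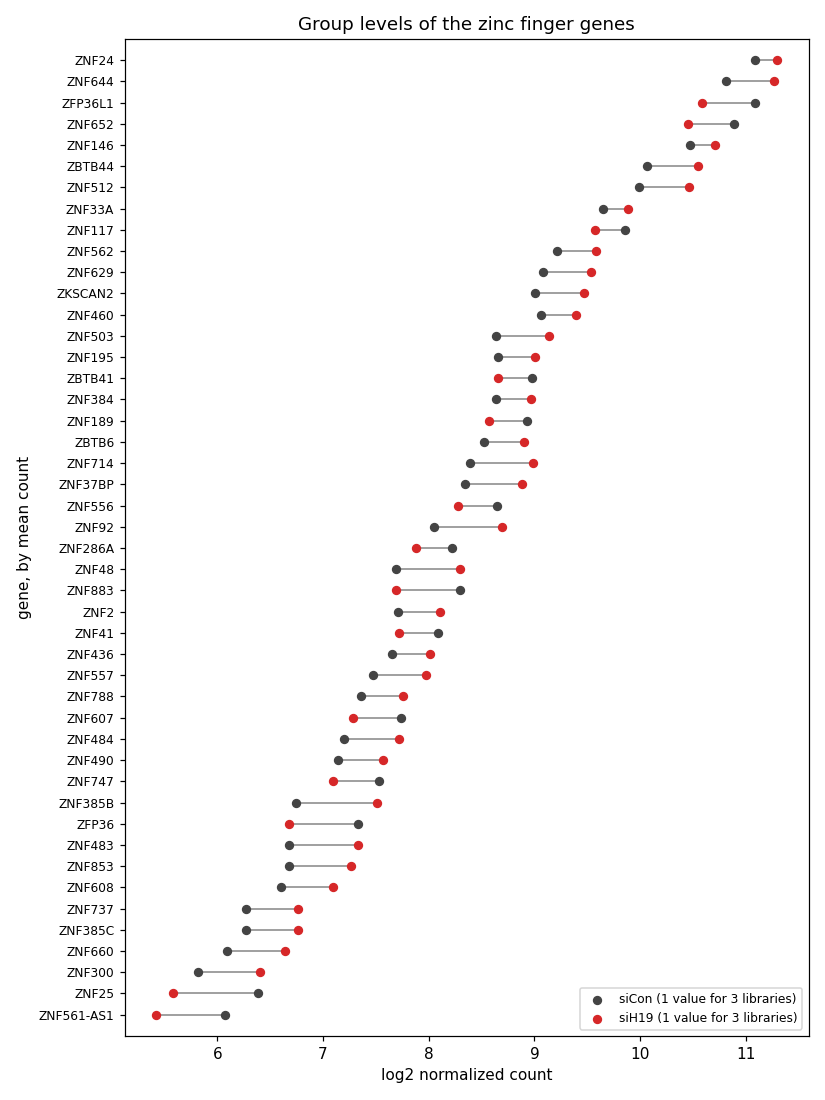
The deposited log2 normalized count of each zinc finger gene (vertical axis, ordered by mean count) in siCon (dark) and siH19 (red), 1 value for the 3 libraries of each group. The line between the 2 points is the difference, and it is short beside the span between genes, from 5.42 to 11.30.

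KRAB zinc finger genes made up the largest class, and they were divided. A search of the translated reference transcripts found a KRAB domain in 23 members, of which 15 were higher and 8 lower after the H19 siRNA. Their log2 fold changes had a median of 0.36 and ran from -0.80 to 0.65. Among these, ZNF92 stood at 265.0 normalized counts in siCon and 413.0 in siH19, a log2 fold change of 0.64 ± 0.12 (SE) in the authors' deposited table (adjusted p = 8e-06). ZNF714 went from 335.5 to 508.5 normalized counts, 0.60 ± 0.11 in the authors' deposited table (adjusted p = 4e-06). ZNF300 was higher too, at 56.5 and 84.4 normalized counts (0.59 ± 0.19 in the authors' deposited table), on much lower counts and with a larger error. The other higher KRAB genes without a SCAN domain lay between 0.24 (ZNF33A) and 0.52 (ZNF484) in the authors' deposited table, and were ZNF557, ZNF737, ZNF490, ZNF2, ZNF562, ZNF436, ZNF195 and ZNF460 besides these.

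The lower KRAB genes were led by ZNF25, with 83.3 normalized counts in siCon and 47.8 in siH19, a 1.74-fold fall (log2 fold change -0.80 ± 0.19 in the authors' deposited table, adjusted p = 5.24e-04). This was the largest change of any member. The difference from the next gene in order, ZNF561-AS1, was 0.14, which is smaller than the combined SE of 0.283. ZNF607 followed at 213.8 and 155.4 normalized counts (-0.46 ± 0.15 in the authors' deposited table), and ZNF747 at 184.8 and 136.2 (-0.44 ± 0.15). The remaining 5 lay between -0.37 and -0.30 in the authors' deposited table and were ZNF41, ZNF189, ZNF556, ZNF286A and ZNF117. Of these 8 lower KRAB genes, ZNF25 alone had an adjusted p under 0.01, while 7 of the 15 higher ones did. Among all 1998 listed genes, 1294 were under 0.01, a larger share than among the higher or the lower KRAB genes, and among the 46 members 20 were. The share over all listed genes was not split by direction. The members nearest the inclusion limit in the authors' deposited table were ZNF436 (adjusted p = 0.0447) and ZNF286A (0.0442), and genes beyond it were not analysed here.

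SCAN members were 3, all higher. ZNF483, which carries both a SCAN and a KRAB domain, went from 102.5 to 160.9 normalized counts (0.65 ± 0.16 in the authors' deposited table, adjusted p = 6.38e-04). In the annotation it overlaps PTGR1, a prostaglandin reductase gene on the opposite strand, which fell (-0.80 ± 0.10 in the authors' deposited table). The libraries keep strand, but whether the counting used it is not stated. Without it, reads of such a pair cannot be told apart, and 26 members overlap an annotated gene on the opposite strand. ZKSCAN2, likewise with both domains, went from 515.6 to 709.2 normalized counts (0.47 ± 0.10 in the authors' deposited table). ZNF24, a SCAN protein known to repress VEGFA, had the highest mean count of all members and the smallest change, 2180 and 2521 normalized counts (0.21 ± 0.08 in the authors' deposited table, adjusted p = 0.0416).

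BTB members were also 3 and did not share a direction. ZBTB44 went from 1075 to 1499 normalized counts (0.48 ± 0.11 in the authors' deposited table) and ZBTB6 from 367.1 to 477.7 (0.38 ± 0.11). ZBTB41 was lower, at 505.0 and 404.5 normalized counts (-0.32 ± 0.11 in the authors' deposited table).

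Among the 13 members with C2H2 fingers and none of the 3 domains, 11 were higher and 2 lower, with a median of 0.47. ZNF385B had the largest rise of all members, from 106.9 to 182.3 normalized counts (0.77 ± 0.16 in the authors' deposited table, adjusted p = 3e-05), and its relative ZNF385C was higher as well (77.2 and 108.4, 0.49 ± 0.17). Fingers of the ZNF385 family are of a kind that binds double-stranded RNA. ZNF385B and the gene next in order, ZNF483, differed by 0.12, less than their combined SE of 0.226. ZNF644, a partner of the histone methyltransferases EHMT1 and EHMT2, went from 1795 to 2470 normalized counts (0.46 ± 0.09 in the authors' deposited table, adjusted p = 1e-05). ZNF512 had the smallest adjusted p of the members, at 1017 and 1409 normalized counts (0.47 ± 0.09 in the authors' deposited table, adjusted p = 2e-06). The other higher genes of the class lay between 0.24 (ZNF146) and 0.61 (ZNF48) in the authors' deposited table, and were ZNF853, ZNF660, ZNF608, ZNF629 and ZNF384 besides these. ZNF384 binds regulatory regions of matrix metalloproteinase genes, and ZNF146 is built of little more than its fingers.

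The 2 lower genes of that class were ZNF883 and ZNF652. ZNF883 went from 315.2 to 206.5 normalized counts (-0.61 ± 0.14 in the authors' deposited table, adjusted p = 4.35e-04). ZNF652, which works with the corepressor CBFA2T3, stood at 1898 and 1399 normalized counts (-0.44 ± 0.14 in the authors' deposited table). The number of C2H2 modules in a protein ran from 4 to 18 in the KRAB class without SCAN (median 12) and from 1 to 19 among genes with fingers alone (median 7). Genes with 1 to 5 modules were higher in 8 of 9 cases, those with 6 to 10 in 9 of 13 and those with 11 or more in 12 of 18, which is a description of small groups.

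**Figure D3:**
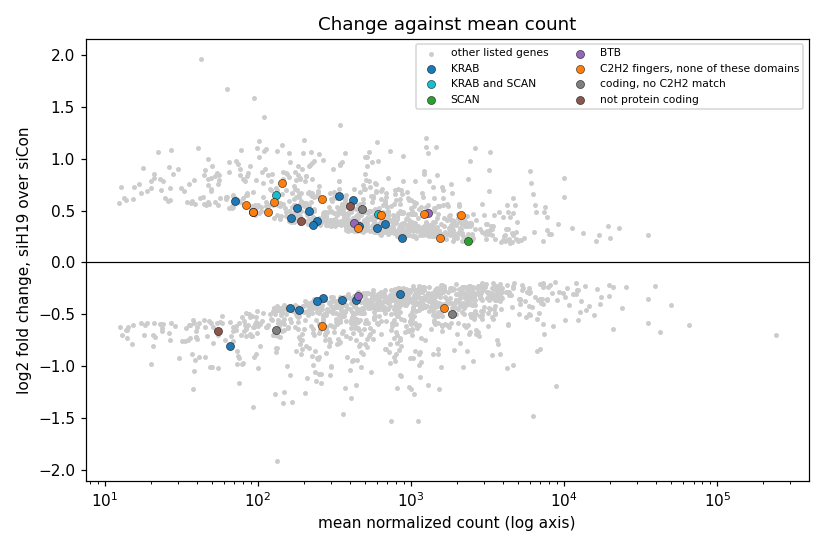
The log2 fold change, siH19 over siCon (vertical axis), against the mean normalized count (horizontal log axis) for the members, coloured by domain class, and for the other 1952 listed genes in grey. The members lie between mean counts of 54.9 and 2353 and inside 0.80 in either direction, while the other listed genes reach -1.91 and 1.96.

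Not every name of the rule is a C2H2 transcription factor. ZFP36 and ZFP36L1, which the name pattern takes in, are CCCH zinc finger proteins that bind AU-rich elements in messenger RNA and speed its decay, and no C2H2 module was found in either. Both were lower, ZFP36 at 160.9 and 102.5 normalized counts (-0.65 ± 0.18 in the authors' deposited table) and ZFP36L1 at 2180 and 1541 (-0.50 ± 0.16). They differed from each other by 0.15, within the combined SE of 0.241. ZNF503, a transcriptional repressor with an atypical finger that the C2H2 spacing did not match, was higher, at 398.9 and 564.2 normalized counts (0.51 ± 0.12 in the authors' deposited table). Of 3 members that are not protein coding in the annotation, the pseudogenes ZNF37BP (0.54 ± 0.12) and ZNF788 (0.40 ± 0.14) were higher in the authors' deposited table. ZNF561-AS1, an antisense transcript, fell from 67.2 to 42.8 normalized counts (-0.66 ± 0.21 in the authors' deposited table). With these 6 set aside, 29 of 40 members (72.5%) were higher.

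Set against the annotation, the table held a smaller share of zinc finger genes than of all genes, and the shortfall lay on chromosome 19. Of 606 annotated protein-coding genes with a name of the rule, 43 (7.10%) were in the table, against 1931 of 19936 (9.69%) for all protein-coding genes. The share was 23 of 375 (6.13%) for KRAB, 3 of 54 (5.56%) for SCAN and 3 of 41 (7.32%) for BTB genes. On chromosome 19 it was 10 of 264 (3.79%), and on all other chromosomes 33 of 342 (9.65%). All protein-coding genes of chromosome 19 were listed at 5.37% (79 of 1472), so the share there was low for genes of any kind. On the other chromosomes the 9.65% of zinc finger genes was close to the 9.69% of all protein-coding genes. How many of these genes were expressed and tested in HepG2 cells was not given, so a gene outside the table may be either unexpressed or unchanged.

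The 46 members lay on 15 chromosomes. Chromosome 19 held 12, of which 8 were higher and 4 lower, with a median of 0.35, and the other chromosomes held 24 higher and 10 lower, with a median of 0.43. Chromosome 9 followed with 5 members (3 higher), and chromosomes 10 and 16 held 4 each (3 higher on each). All 3 members of chromosome 2 were higher, namely ZNF385B, ZNF512 and ZNF2. KRAB genes without SCAN were higher in 6 of 8 cases on chromosome 19 and in 7 of 13 elsewhere, a difference that was not tested.

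Members of the same chromosomal run did not always share a direction. A run was defined as zinc finger genes of 1 chromosome with at most 5 other protein-coding genes between neighbours, and 7 runs held at least 2 members. Noncoding genes entered a run only if they were in the table, as ZNF37BP, ZNF788 and ZNF561-AS1 were. Without them, the runs of ZNF562 and of ZNF490 would hold no other member, and the chromosome 10 run only ZNF25 and ZNF33A. In 5 of the 7 runs the members went both ways. With 32 members higher and 14 lower, mixed runs can occur whatever the position of the genes, and their number was not tested. On chromosome 10, a run of 6 genes held ZNF25 (-0.80), ZNF33A (0.24 ± 0.09) and ZNF37BP (0.54) by the authors' deposited table, and it was the 1 run with 3 members. ZNF25 and ZNF33A differed by 1.04 (combined SE 0.21). Each member was selected for a change well beyond its own SE. Members of opposite direction therefore had to differ by more than their combined SE, and such gaps are no test. On chromosome 16, ZNF48 and ZNF747 differed by 1.05 (combined SE 0.219). On chromosome 19, ZNF562 was higher, at 592.2 and 765.4 normalized counts (0.37 ± 0.10 in the authors' deposited table), and ZNF561-AS1, which overlaps it on the opposite strand, was lower, a gap of 1.03 (combined SE 0.233). ZNF146 and ZNF607, in a run of 29 genes, differed by 0.70 (combined SE 0.175). The 2 runs in which both members rose were also on chromosome 19. They were a run of 27 genes with ZNF788 and ZNF490, and a run of 37 genes with ZNF737 and ZNF714. No other gene of these runs was in the table, and the differences within the pairs, 0.03 (combined SE 0.198) and 0.11 (combined SE 0.202), were within their errors.

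**Figure D4:**
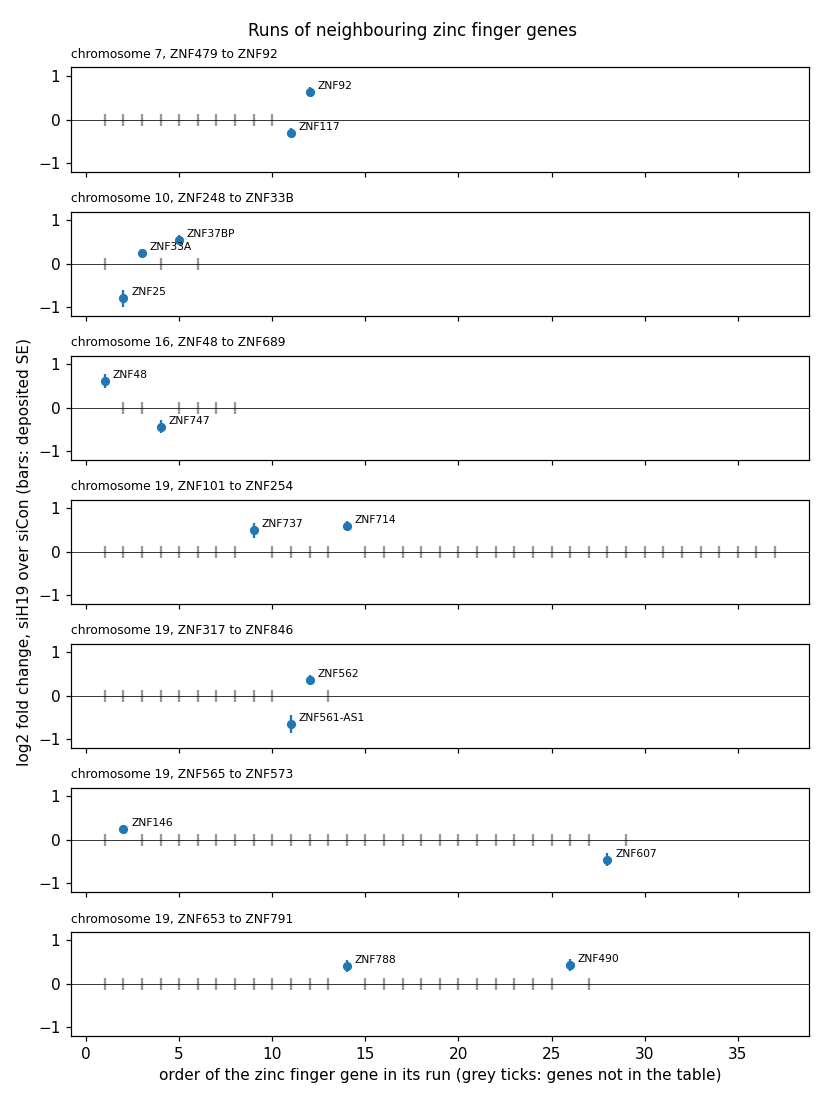
The log2 fold change, siH19 over siCon (vertical axis), of members by their order in 7 runs of neighbouring zinc finger genes (horizontal axis), with bars for the deposited SE and grey ticks at 0 for genes of the run that are not in the table and have no value. In 5 runs points lie on both sides of 0, and most genes of the 4 chromosome 19 runs are ticks.

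Among a group of relatives that also includes ZNF117, which fell, ZNF92, ZNF714, ZNF737 and ZNF195 rose with promoters that resemble each other. They are relatives of ZNF91, a primate KRAB zinc finger gene known to repress SVA retrotransposons. Their promoters are shown from 250 bases before to 50 bases after the annotated start (RefSeq, GRCh38.p14, a different build from the hg19 named in the submitters' processing notes), as the clearest case of members alike in sequence and in direction. Capitals mark the matches, on either strand, to CCAAT, to the GC box GGGCGG and to the ETS-type sequence CCGGAAG, which were found in 34.6%, 45.0% and 10.3% of 35116 such windows over all genes. None of the 3 overlapped another here.
ZNF92 promoter, GRCh38.p14 chr7:65373605-65373904, plus strand: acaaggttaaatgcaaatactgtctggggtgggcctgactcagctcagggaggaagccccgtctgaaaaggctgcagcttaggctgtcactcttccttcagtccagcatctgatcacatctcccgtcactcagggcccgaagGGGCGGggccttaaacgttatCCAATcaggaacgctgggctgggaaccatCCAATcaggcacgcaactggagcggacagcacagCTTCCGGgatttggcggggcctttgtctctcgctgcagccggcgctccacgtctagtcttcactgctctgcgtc
ZNF714 promoter, GRCh38.p14 chr19:21081953-21082252, plus strand: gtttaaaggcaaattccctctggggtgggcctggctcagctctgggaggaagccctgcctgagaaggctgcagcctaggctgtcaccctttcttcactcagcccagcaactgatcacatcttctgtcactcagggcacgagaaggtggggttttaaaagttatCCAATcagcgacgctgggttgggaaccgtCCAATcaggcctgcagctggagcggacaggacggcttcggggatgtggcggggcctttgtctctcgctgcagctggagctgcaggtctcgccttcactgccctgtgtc
ZNF737 promoter, GRCh38.p14 chr19:20565732-20566031, minus strand: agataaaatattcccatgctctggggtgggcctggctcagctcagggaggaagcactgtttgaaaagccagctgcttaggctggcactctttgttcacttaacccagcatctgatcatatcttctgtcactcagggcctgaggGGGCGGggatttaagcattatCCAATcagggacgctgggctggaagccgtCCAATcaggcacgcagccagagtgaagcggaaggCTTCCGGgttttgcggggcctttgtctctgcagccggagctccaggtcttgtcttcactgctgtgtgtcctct
ZNF195 promoter, GRCh38.p14 chr11:3379097-3379396, minus strand: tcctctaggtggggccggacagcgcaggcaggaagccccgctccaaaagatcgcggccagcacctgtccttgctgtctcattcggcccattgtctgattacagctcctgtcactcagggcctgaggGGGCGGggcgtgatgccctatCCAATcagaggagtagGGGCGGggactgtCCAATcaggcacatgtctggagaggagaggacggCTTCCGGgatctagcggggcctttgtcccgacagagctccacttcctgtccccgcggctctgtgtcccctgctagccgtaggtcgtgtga
For contrast, the first annotated promoter of the largest fall, in the same form, holds 1 match to CCAAT, on the opposite strand, and neither of the other 2 sequences.
ZNF25 promoter, GRCh38.p14 chr10:37976598-37976897, minus strand: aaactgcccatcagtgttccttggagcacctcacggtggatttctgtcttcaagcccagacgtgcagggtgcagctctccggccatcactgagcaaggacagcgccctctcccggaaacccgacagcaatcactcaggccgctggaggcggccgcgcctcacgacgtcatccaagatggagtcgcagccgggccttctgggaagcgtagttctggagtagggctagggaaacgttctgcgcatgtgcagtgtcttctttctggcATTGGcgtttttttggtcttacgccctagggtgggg

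Of the 300 bases, ZNF92 shared 84.0% with ZNF714, 81.3% with ZNF737 and 66.7% with ZNF195, against a median of 52.0% over 1917 pairs of promoter windows of different members. All 4 genes were higher: besides ZNF92 and ZNF714, ZNF737 went from 77.2 to 108.4 normalized counts (0.49 ± 0.17 in the authors' deposited table) and ZNF195 from 404.5 to 515.6 (0.35 ± 0.11). A promoter like that of ZNF92 was about as common outside the table as in it. Among 508 annotated zinc finger genes with a promoter entry, 40 shared at least 65% with it and 3 of these (7.5%) were in the table, against 36 of the other 468 (7.69%). The 37 that were not in the table included ZNF138, ZNF273 and ZNF430, each at 85.0%, and ZNF91 at 82.0%.

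**Figure D5:**
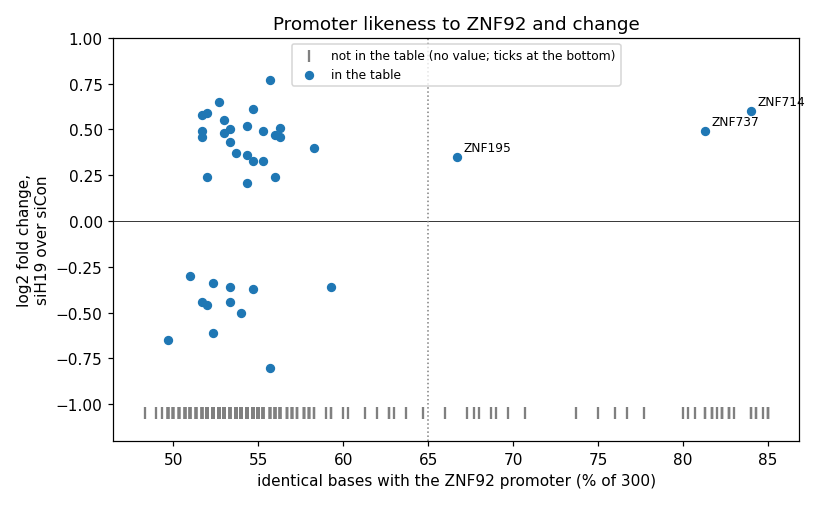
The log2 fold change, siH19 over siCon (vertical axis), against the share of 300 promoter bases identical with ZNF92 (horizontal axis, dotted line at 65%), for the listed zinc finger genes (points) and for those not in the table (grey ticks at the bottom, no value). ZNF195, ZNF737 and ZNF714 are the 3 points to the right of the line, all above 0, beside 37 ticks.

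ZNF117 is a relative of the same proteins that moved the other way. Its protein had 57.3% of residues identical with ZNF92, as a share of the longer protein, 60.4% with ZNF737 and 58.9% with ZNF714, while the median over 903 pairs of member proteins was 20.7%. By the same measure ZNF195, which rose, was less alike, with 55.6% for ZNF92, 55.7% for ZNF737 and 50.8% for ZNF714. ZNF117 is the neighbour of ZNF92 in their run on chromosome 7, yet its promoter shared 51.0% of bases with that of ZNF92. The gene was lower, at 929.3 and 760.1 normalized counts (-0.30 ± 0.11 in the authors' deposited table). It differed from ZNF92 by 0.94 (combined SE 0.163), a gap beyond the SE that the selection of both ensured. In the annotation it overlaps ERV3-1, the envelope gene of an endogenous retrovirus, on the same strand, and ERV3-1 was also lower (-0.39 ± 0.10 in the authors' deposited table). Reads shared by this pair cannot be told apart in the table.

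Short reads from such relatives could be assigned to the wrong copy. Of all windows of 76 bases, the read length, in a member's annotated transcript, 35 members shared none with a transcript of another gene elsewhere. ZNF286A shared 44.7% of its windows, most with ZNF286B, and ZNF562 shared 5.89%, most with the pseudogene ZNF812P. The fall of ZNF286A (-0.34 ± 0.13 in the authors' deposited table) and the rise of ZNF562 are thus uncertain as to the copy. ZNF33A shared 2.18% with ZNF33B, ZNF737 shared 1.04% with ZNF626, and the others shared less than either.

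Some members carry 2 sequences of 7 bases that were more frequent among lower or higher genes of the whole table. In 3' untranslated regions of 1915 listed genes, CATCAAA was found in 303, of which 74.3% were lower, and GCAGTAC in 160, of which 84.4% were higher. These sequences had been picked for that tie in the same table, so their count among members is no independent evidence. Of 40 members with a region to search, 7 held CATCAAA, and 4 of these were lower and 3 higher, whereas 8 of the 33 without it were lower. The regions with it were longer, with a median of 3848 bases against 1319. The sites are shown with 10 bases on each side, the 7 bases in capitals, and the position counted from the first base after the stop codon, from the lowest to the highest fold change.
ZNF25, chromosome 10, minus strand, base 2195 of 2555: attgtcataaCATCAAAacaagaaatt
ZNF652, chromosome 17, minus strand, base 696 of 3848: tttttataatCATCAAAatgtgattct
ZNF286A, chromosome 17, plus strand, base 2622 of 3497: ggaaatgctgCATCAAAatactcctac
ZNF117, chromosome 7, minus strand, base 254 of 6343: tttaattgatCATCAAAccttattaaa
ZNF117, chromosome 7, minus strand, base 2569 of 6343: attgctgcttCATCAAAgatatgagac
ZNF24, chromosome 18, minus strand, base 563 of 5020: ggtgataaaaCATCAAAaagtgaatgg
ZKSCAN2, chromosome 16, minus strand, base 452 of 3815: atcggaactaCATCAAAtccatcttgg
ZBTB44, chromosome 11, minus strand, base 3200 of 7314: atagtggaagCATCAAAcatgtcagtg

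The lower genes here include ZNF25, the largest fall of all members, and ZNF117 with 2 sites. The higher ones are ZNF24, ZKSCAN2 and ZBTB44. GCAGTAC was held by 5 members, of which 4 were higher and 1, ZNF286A, was lower, and 24 of the 35 without it were higher. Its sites follow in the same form.
ZNF286A, chromosome 17, plus strand, base 274 of 3497: agagtaggtaGCAGTACgaacattgtg
ZNF2, chromosome 2, plus strand, base 347 of 861: tgatatcacaGCAGTACtatttttttt
ZNF644, chromosome 1, minus strand, base 250 of 1496: cagtaaaagaGCAGTACatgtaagcag
ZNF714, chromosome 19, plus strand, base 2243 of 4819: tatataagatGCAGTACatttttaaaa
ZNF92, chromosome 7, plus strand, base 1191 of 1250: gtaataaaatGCAGTACtttaaaacat

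ZNF92 and ZNF714 carry GCAGTAC as well as similar promoters. ZNF2, at 209.4 and 276.3 normalized counts (0.40 ± 0.13 in the authors' deposited table), and ZNF644 are the other higher genes with it. ZNF286A holds both sequences.

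Some genes for the proteins that zinc finger repressors work with were also in the table. Of 44 symbols for corepressor, heterochromatin and DNA methylation genes, 7 (15.9%) were listed, against 9.69% of all protein-coding genes. How many genes on either side were expressed in HepG2 cells was not given, so the shares may not be comparable. Of the 7 listed, 5 were higher and 2 lower, with a median of 0.29. By the authors' deposited table the leading genes were UHRF1, which guides maintenance methylation (0.41 ± 0.12), and ATF7IP, the partner of the methyltransferase SETDB1 (0.39 ± 0.12). PPHLN1 (-0.29 ± 0.09) and FAM208A (-0.25 ± 0.08), both subunits of the HUSH silencing complex, were the lower ones in the authors' deposited table. TRIM28 and SETDB1 themselves were not in the table.

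C2H2 transcription factors with other names were likewise divided. Of 133 symbols 12 (9.02%) were listed, against the same 9.69%, and of these 8 were higher and 4 lower, with a median of 0.295. The authors' deposited table gave EGR1, an immediate early factor (-0.87 ± 0.17), then KLF15, which drives gluconeogenic genes in liver (-0.76 ± 0.19), and KLF11 (0.70 ± 0.16), as the furthest from 0. CTCF, which organises chromatin loops, was higher by 0.28 ± 0.08 in the authors' deposited table.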

How the data were processed

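RNA of HepG2 cells, 3 siCon and 3 siH19 libraries, was freed of ribosomal RNA and sequenced as stranded, paired 76-base reads, per the labels' protocols. The submitters' processing notes name STAR 2.5.0a, Cufflinks 2.2.1, DESeq2 1.0.0 and hg19, without roles. The authors deposited 1 table. Per the file headers it holds log2 counts per group, a mean count (a normalized signal, not whole reads), a log2 fold change with its SE, and a q value (adjusted p-value), all as deposited by the authors. The libraries of a group were combined, which left no library values to test. Group values and fold changes in the table matched within 0.01, and no member had an SE under that of counting alone. Among all listed genes, however, the SE did not exceed 0.22 even at the lowest counts. MYB, with the lowest mean count (12.32), had an SE of 0.21, which is under that of counting alone. Such small errors at low counts point to fold changes shrunken toward 0, with group values to match, although shrinkage was not stated.

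The members, lists and alternatives were chosen with earlier results of these data known. Named genes are the 8 largest rises and falls, the 3 highest mean counts, the extremes of each class, runs of at least 3 members, the 2 largest adjusted p-values and members without a C2H2 match. From each list of other genes the 3 largest changes are named, except for an item that is not reported here. Any further gene was named after its values were seen.

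All 46 symbols matched GENCODE 29 (GRCh38), 1 by an older symbol. Its build differs from hg19, so gene coordinates are not printed. One coding transcript per gene was translated, and C2H2 modules were counted by spacing (cysteines 2 to 4 residues apart, then 12 residues, then histidines 3 to 5 apart). Domains were searched in all isoforms, before the first module, with jackhmmer (HMMER 3.4, 3 rounds, E-value under 1e-05), from ZNF10, ZSCAN21 and ZBTB16, and the search was tested on simulated data. Promoters are RefSeq entries for 41 members. There was no entry for ZBTB41, ZBTB6, ZKSCAN2, ZNF37BP and ZNF788. Sequence identity was taken from global alignments (Biopython 1.88). Alternatives covered the adjusted p, mean count, fold, domain, overlap and run settings.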

Additional observations from a re-analysis of the deposited data

How the results depend on the processing

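No paired analysis was possible because the authors' deposited table gives 1 value per group, and for the same reason no library could be left out. An adjusted p under 0.01 was met by 20 of 46 members, against 1294 of all 1998 listed genes. Of these members, 17 were higher and 3 lower (85.0% higher). Among members changed by at least 1.5-fold, 6 were higher and 4 lower, with a median of 0.595. The share on the higher side thus lay between 60.0% and 85.0% over 7 settings. For all listed genes it was 44.7% at an adjusted p under 0.05, and it was not recomputed for them under these settings. The other 16 overall counts and medians stayed within 1.5 times the reported count or within the median SE of 0.13. They were the median at an adjusted p under 0.01 (0.49) and the counts and medians under 5 settings, namely a mean count of at least 100, at least 3 C2H2 modules, no overlap with a listed gene, and, chosen after seeing the data, at most 5% shared windows and coding genes with a C2H2 match. At an adjusted p under 0.01 the KRAB genes were 7 higher and 1 lower, with a median of 0.51, the BTB genes were 2 higher and 0 lower, and those of chromosome 19 were 3 higher and 1 lower. By name alone 1 member was a SCAN gene. With up to 10 other genes between neighbours, 2 runs held at least 3 members. No median reversed. Depth per library is unknown, so what it limits could not be computed.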

Other observations

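6 short sequences were searched on both strands of the annotated promoters, 63 windows of 41 members. CCGGAAG, an ETS-type sequence, was found in 10 of the 28 higher members and in 0 of the 13 lower ones. A member may have several windows: by window it was found in 12 of 42 of higher members (28.6%), in 0 of 21 of lower members, in 12 of all 63 and in 10.3% of 35116 windows of all genes. The members with it were ZNF195, ZNF24, ZNF384, ZNF436, ZNF460, ZNF48, ZNF557, ZNF660, ZNF737 and ZNF92, and the promoters of ZNF195, ZNF737 and ZNF92 are similar to each other and so count less than singly. This split was noticed after the search and was not tested.

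The other sequences showed no such division. The GC box GGGCGG was found in 18 of 28 higher and 7 of 13 lower members, and CCAAT in 15 and 6. The cyclic AMP response element TGACGTCA was found in 2 higher members, ZNF460 and ZNF562, and in 2 lower ones, ZFP36L1 and ZNF561-AS1. The E-box CACGTG was found in 2 higher and 0 lower members, and ATGGCG, part of YY1 sites, in 4 and 2. Member windows held a median of 21 CpG dinucleotides, against 14 over all windows. All windows belong to 27305 genes, more than the 19936 annotated protein-coding genes, whereas most members are coding. Neither this comparison nor that of CCGGAAG with all windows is thus between like genes, and the differences were not tested.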
